A study of Mus musculus with 2 samples.

Results

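Peaks of open chromatin within 500 kb of the position of Ebf1, Ebf2, Ebf3, Foxc1 or Prrx1 on the same chromosome were taken from the count matrix by distance alone. They were 711 of the 203545 peaks of the matrix, with 192 around Ebf1, 155 around Ebf2, 106 around Ebf3, 129 around Foxc1 and 129 around Prrx1. Each peak was described by its accessibility in reticular, osteoblast, mural, chondrocyte and B-lymphoid nuclei, beside the RNA of the 5 genes in the same nuclei. Accessibility is given as CPM, the usual scaling of a peak's counts to the total in all peaks of the class. The window cut through runs of peaks. Around Ebf1 the farthest peak inside, at 499.2 kb, had 0.330 CPM in reticular and 15.9 CPM in B-lymphoid nuclei. The first beyond, at 506.4 kb, had 16.8 and 0 CPM. The same pair of peaks around Prrx1 had 7.19 and 0.496 CPM in reticular nuclei, around Ebf2 0.165 and 0.743 CPM, around Ebf3 1.16 and 0.330 CPM and around Foxc1 0.743 and 0.413 CPM.

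Femurs of mice of the genotype Prrx1-cre; R26R(tdTomato/+) were taken at postnatal day 21, their distal growth plates were cut away, and tdTomato+ stromal cells of the bone marrow were sorted for nuclei. The Cre transgene is active in limb mesenchyme through regulatory sequence of Prrx1, so that skeletal cells of the limb and all cells they give rise to turn red with tdTomato. RNA and open chromatin were read from the same nuclei with the 10x Multiome assay, in 1 RNA library and 1 ATAC library that share their barcodes, with nuclei pooled and 15000 loaded. There were no replicates, so the classes compared below are groups of nuclei of 1 pool and no difference was tested between animals. The transgene carries Prrx1 regulatory sequence of its own, and reads from it cannot be told apart from reads of the Prrx1 locus.

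Reticular cells are the CXCL12-producing stromal cells that line marrow sinusoids and support blood stem cells and B lymphopoiesis. Ebf1, Ebf2 and Ebf3 encode early B-cell factors, DNA-binding proteins of which Ebf1 is required for commitment to the B lineage, and in mice Ebf1 and Ebf3 keep reticular cells from turning the marrow cavity into bone. Foxc1 encodes a forkhead factor that reticular cells need to form their niche in mice, and Prrx1 encodes a paired-type homeobox factor of limb mesenchyme. Genes of this kind are often controlled by enhancers scattered far from the promoter, and such elements are usually accessible in the cells that use them.

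The results turn on 9 of the peaks, 1 in each line below: for each gene a peak with the highest accessibility in reticular nuclei of the 5 classes, and 4 more from Prrx1, Ebf2 and Ebf1 introns or flanks that set reticular nuclei against another class. A peak is called led by a class where that class exceeds every other beyond counting error. Each line gives the central 200 bases on the plus strand of mm10. Capitals mark matches on either strand to 5 short consensus motifs: TCCCNNGGG for early B-cell factors, TGTTTAC for forkhead factors, TGTGGTT for RUNX factors, TAATTA for homeobox factors and TGANTCA for AP-1. These peaks were chosen after their values were seen.
Ebf1, 267 kb upstream, led by reticular nuclei, chr11:44349808-44350007: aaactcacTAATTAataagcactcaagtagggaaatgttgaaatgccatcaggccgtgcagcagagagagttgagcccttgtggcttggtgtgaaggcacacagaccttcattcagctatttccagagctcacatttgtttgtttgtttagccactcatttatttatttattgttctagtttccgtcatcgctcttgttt
Ebf2, 233 kb downstream, led by reticular nuclei, chr14:67467642-67467841: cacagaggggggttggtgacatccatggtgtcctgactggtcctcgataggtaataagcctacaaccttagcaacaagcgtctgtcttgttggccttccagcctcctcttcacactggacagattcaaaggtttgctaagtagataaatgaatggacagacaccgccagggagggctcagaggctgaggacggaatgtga
Ebf3, 384 kb downstream, led by reticular nuclei, chr7:136882913-136883112: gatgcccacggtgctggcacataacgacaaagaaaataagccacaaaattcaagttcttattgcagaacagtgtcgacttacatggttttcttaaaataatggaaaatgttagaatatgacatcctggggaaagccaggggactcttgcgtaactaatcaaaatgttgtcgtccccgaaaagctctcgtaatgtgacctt
Foxc1, 2.40 kb upstream, led by reticular nuclei, chr13:31803765-31803964: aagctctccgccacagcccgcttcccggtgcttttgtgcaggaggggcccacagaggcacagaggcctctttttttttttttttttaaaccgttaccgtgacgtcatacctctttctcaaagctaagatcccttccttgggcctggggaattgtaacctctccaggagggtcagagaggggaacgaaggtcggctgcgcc
Prrx1, 374 kb downstream, led by reticular nuclei, chr1:162938757-162938956: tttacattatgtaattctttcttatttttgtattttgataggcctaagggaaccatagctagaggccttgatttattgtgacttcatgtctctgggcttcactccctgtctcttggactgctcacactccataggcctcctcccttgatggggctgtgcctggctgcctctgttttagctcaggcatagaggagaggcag
Prrx1 intron, 60.6 kb downstream, led by reticular nuclei, chr1:163252507-163252706: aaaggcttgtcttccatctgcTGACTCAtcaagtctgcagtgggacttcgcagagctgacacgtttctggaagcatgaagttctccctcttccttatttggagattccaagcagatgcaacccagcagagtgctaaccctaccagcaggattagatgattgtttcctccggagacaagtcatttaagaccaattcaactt
Prrx1 intron, 45.9 kb downstream, led by osteoblast nuclei, chr1:163267180-163267379: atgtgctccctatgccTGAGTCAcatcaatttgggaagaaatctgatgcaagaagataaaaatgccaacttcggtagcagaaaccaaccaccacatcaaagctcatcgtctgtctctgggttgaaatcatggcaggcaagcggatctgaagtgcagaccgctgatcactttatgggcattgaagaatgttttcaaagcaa
Ebf2 intron, 123 kb downstream, led by mural nuclei, chr14:67357619-67357818: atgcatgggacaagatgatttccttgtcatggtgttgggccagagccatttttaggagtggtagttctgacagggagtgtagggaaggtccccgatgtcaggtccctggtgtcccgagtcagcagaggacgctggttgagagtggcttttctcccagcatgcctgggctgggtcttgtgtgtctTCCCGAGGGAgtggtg
Ebf1, 41.9 kb upstream, led by B-lymphoid nuclei, chr11:44574910-44575109: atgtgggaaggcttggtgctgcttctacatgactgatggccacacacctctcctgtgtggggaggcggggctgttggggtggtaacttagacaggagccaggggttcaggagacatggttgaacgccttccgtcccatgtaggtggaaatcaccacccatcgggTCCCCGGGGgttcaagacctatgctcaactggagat

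Of these 9 windows, the Ebf1 peak led by reticular nuclei held a homeobox match at bases 9 to 14. Both Prrx1 introns held an AP-1 match, at bases 22 to 28 in the peak led by reticular nuclei and at bases 17 to 23 in the peak led by osteoblast nuclei. The early B-cell factor consensus was found in the Ebf2 peak led by mural nuclei, as overlapping matches over bases 185 to 194, and in the Ebf1 peak led by B-lymphoid nuclei at bases 165 to 173. The other 4 windows held none of the 5 strings. Over the central 200 bases of 203495 peaks with sequence, the early B-cell factor string was found in 4.75%, the forkhead string in 3.41%, the RUNX string in 10.2%, the homeobox string in 5.56% and the AP-1 string in 15.7%.

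Of 4663 barcodes with at least 500 UMIs (RNA molecules) and 1000 ATAC counts, 1411 nuclei were kept after a limit of 10% mitochondrial UMIs and the removal of doublets, and 775 of them (54.9%) passed no gate. The gates left 330 reticular nuclei with 12106879 ATAC counts, 84 osteoblast nuclei with 2771531, 19 mural nuclei with 483013, 18 chondrocyte nuclei with 1019289 and 40 B-lymphoid nuclei with 1256324. In the same order, 1 count was worth 0.0826, 0.361, 2.07, 0.981 and 0.796 CPM, and a class at 0 counts may lie as high as 0.248, 1.08, 6.21, 2.94 and 2.39 CPM, the value of 3 counts. RNA was highest in its own class for 11 of 11 reticular, 9 of 11 osteoblast and 12 of 12 mural markers. The same held for 16 of 16 chondrocyte and 14 of 14 B-lymphoid markers. The gates themselves used all of these but the mural marker Pdgfrb. Accessibility within 20 kb of the same genes, which the gates did not use, was highest in the named class for 10, 10, 9, 14 and 14 of them. The sort for tdTomato also held 116 erythroid or granulocyte nuclei, and neither these nor B-lymphoid nuclei belong to the lineage that Prrx1-cre is meant to mark. Free RNA reached every class: the osteoblast markers summed to 16887 CPM in reticular nuclei and to 18245 CPM in erythroid or granulocyte nuclei, against 178326 CPM in osteoblast nuclei.

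RNA of 4 of the 5 genes, all but Prrx1, was at least 2-fold higher in reticular than in osteoblast nuclei, where 38.9% of 7515 genes with at least 20 UMIs were. Ebf3 RNA stood out most, at 1526 CPM in reticular nuclei (1275 UMIs), against 28.3 CPM in osteoblast, 375 CPM in mural, 0 CPM in chondrocyte and 9.02 CPM in B-lymphoid nuclei. The free RNA profile held Ebf3 at 40.8 CPM. Here and below, such a value is the level within free RNA alone, not the amount that free RNA adds to a nucleus. Erythroid or granulocyte nuclei had 0 Ebf3 UMIs, and the part of the osteoblast value that came from free RNA was not measured. For Foxc1 the osteoblast value and the profile were both 27.1 CPM. For Ebf1, Ebf2 and Prrx1 the free RNA profile held 182, 7.63 and 70.9 CPM. For Ebf3 the log2 ratio of reticular over osteoblast nuclei was 5.73 with a 95% interval of 5.19 to 6.39. The Ebf3 ratio of reticular over mural nuclei was 1.98 with an interval of 1.34 to 2.81. These intervals and all those below are exact and cover counting error only.

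Ebf1 RNA was shared by several classes, with 2400 CPM in reticular nuclei (2005 UMIs), 227 CPM in osteoblast, 2251 CPM in mural, 70.0 CPM in chondrocyte and 7514 CPM in B-lymphoid nuclei (833 UMIs). Reticular and mural nuclei differed by less than their counting error (log2 ratio 0.09, interval -0.19 to 0.39), and reticular nuclei lay below B-lymphoid nuclei (log2 ratio -1.65, interval -1.76 to -1.53). Ebf2 RNA was highest in mural nuclei: it was at 142 CPM in reticular nuclei, against 15.8 CPM in osteoblast and 309 CPM in mural nuclei, the last from 14 UMIs (log2 ratio of reticular over mural nuclei -1.16, interval -1.92 to -0.20). Foxc1 RNA was at 230 CPM in reticular nuclei, against 27.1 CPM in osteoblast, 0 CPM in mural, 61.3 CPM in chondrocyte and 18.0 CPM in B-lymphoid nuclei. The 0 UMIs of mural nuclei left the log2 ratio of reticular over mural nuclei for Foxc1 without an upper limit, and its 95% interval began at 1.48. Prrx1 RNA was at 280 CPM in reticular nuclei, against 162 CPM in osteoblast, 441 CPM in mural, 0 CPM in chondrocyte and 9.02 CPM in B-lymphoid nuclei. Reticular exceeded osteoblast nuclei by a log2 ratio of 0.79 (interval 0.49 to 1.10) for Prrx1, short of 2-fold, and the mural value, from 20 UMIs, overlapped the reticular one.

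The start peaks of Ebf1, Ebf2, Ebf3 and Foxc1 had smaller ratios of reticular over osteoblast nuclei than the RNA of these genes. At the Ebf1 start (chr11:44616759-44617627) accessibility was 32.9 CPM in reticular nuclei, against 31.8, 33.1, 17.7 and 47.8 CPM in osteoblast, mural, chondrocyte and B-lymphoid nuclei, a log2 ratio of reticular over osteoblast of 0.04 (interval -0.42 to 0.53). The Ebf2 start (chr14:67234110-67235009) had 30.1 CPM in reticular nuclei, against 27.4, 43.5, 13.7 and 6.37 CPM in the same 4 classes. At both starts reticular and osteoblast nuclei differed by less than counting error. The Ebf3 start (chr7:137314024-137314948) was higher in reticular nuclei, with 80.7 CPM, against 43.7, 74.5, 28.5 and 12.7 CPM (log2 ratio over osteoblast 0.88, interval 0.51 to 1.28). The Foxc1 start (chr13:31806186-31807044) had 72.3 CPM, against 54.8, 82.8, 54.9 and 18.3 CPM, with open chromatin in mural nuclei although no Foxc1 UMI was counted there. Prrx1 ran the other way: its nearest peak (chr1:163311797-163312720, 0.947 kb inside the gene) had 9.42 CPM in reticular nuclei, against 19.8, 0, 8.83 and 1.59 CPM, and its log2 ratio over osteoblast of -1.08 (interval -1.65 to -0.33) became -0.06 when every nucleus was given the same weight. A further Ebf3 start inside the gene (chr7:137267231-137268089) was faint but stromal, at 5.70 CPM in reticular nuclei, against 0.361 CPM in osteoblast nuclei from 1 count and 8.28 CPM in mural nuclei.

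**Figure D1:**
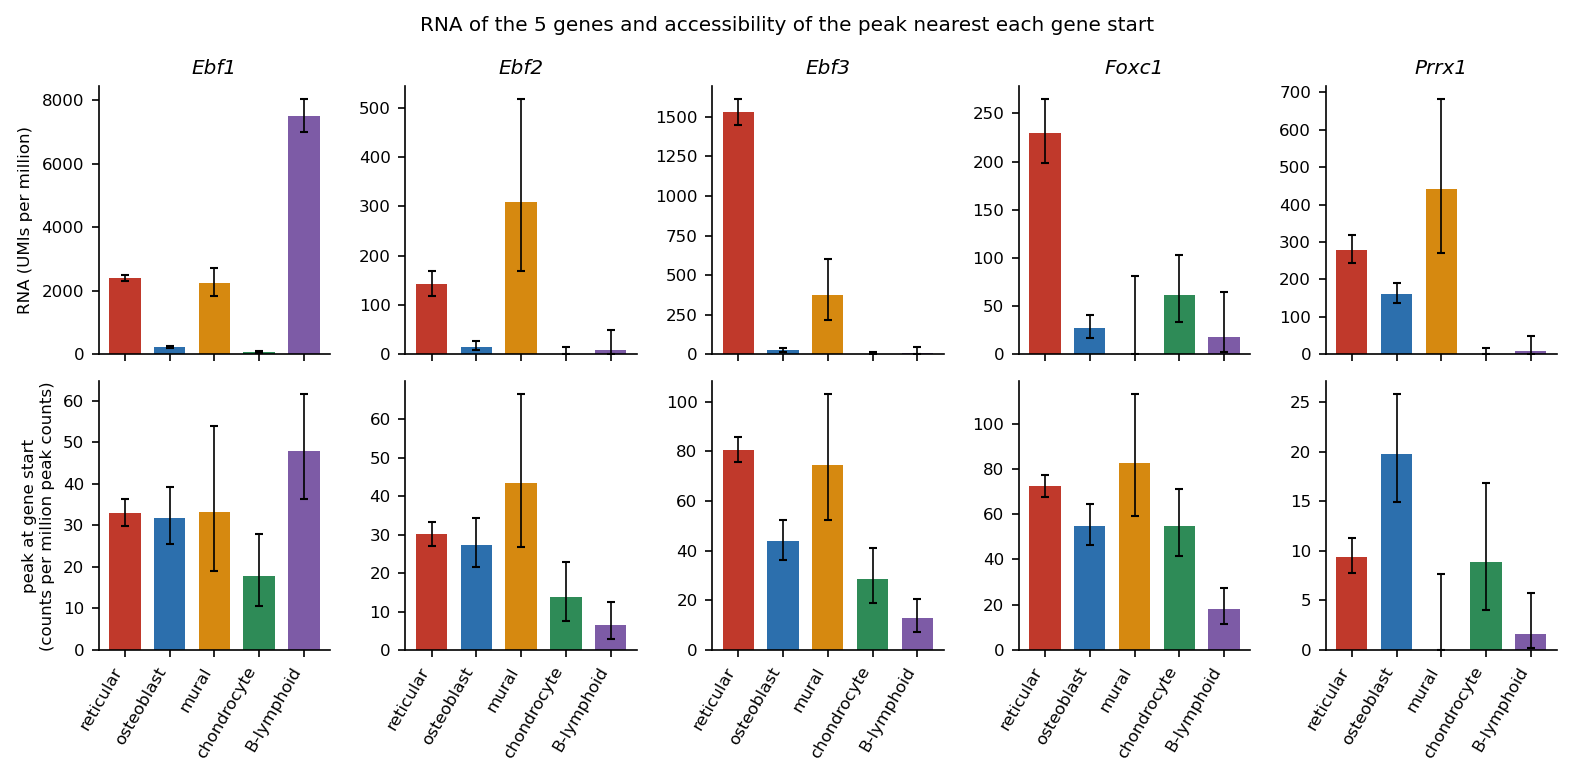
Bars give RNA (upper panels, CPM of UMIs) and accessibility of the peak nearest the gene start (lower panels, CPM of peak counts) in reticular, osteoblast, mural, chondrocyte and B-lymphoid nuclei, with exact Poisson 95% intervals and 1 library. Ebf3 RNA reaches 1526 in reticular nuclei against 28.3 in osteoblast nuclei, while its start peak has 80.7 against 43.7, and the Prrx1 start peak is lower in reticular nuclei at 9.42 against 19.8.

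Around all 5 genes, more peaks were higher in reticular than in osteoblast nuclei than in the matrix at large. Of the 711 peaks, 255 had at least 50 counts over both classes, and 141 of these (55.3%) were at least 2-fold higher in reticular nuclei, against 37.3% of 57972 peaks of the whole matrix. At least 2-fold lower were 19 (7.45%), against 13.0% of all peaks. The median log2 ratio of reticular over osteoblast nuclei was 1.33 around the 5 genes and 0.37 over all peaks. Reticular nuclei held most of the counts, so a peak high in them passed the minimum more easily than one high elsewhere, around the 5 genes and in the background alike, and the other 456 peaks gave no ratio.

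Prrx1 and Ebf1 lay at the upper end of this comparison and Foxc1 at the background. Higher in reticular than in osteoblast nuclei were 30 of 47 peaks around Prrx1 (median log2 ratio 1.85), 42 of 70 around Ebf1 (1.74), 37 of 64 around Ebf2 (1.38), 18 of 37 around Ebf3 (0.96) and 14 of 37 around Foxc1 (0.59). Lower were 3, 4, 4, 3 and 5 of them. Summed over the whole window, Prrx1 had 630 CPM in reticular nuclei against 403 CPM in osteoblast nuclei, and Ebf1 had 881 against 512 CPM. Ebf2 had 1043 against 739 CPM, Ebf3 had 653 against 421 CPM, and Foxc1, with the smallest gap, had 490 against 422 CPM. The order of the genes by peaks therefore was not that of their RNA, in which Ebf3 had the largest ratio and Prrx1 the smallest.

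**Figure D2:**
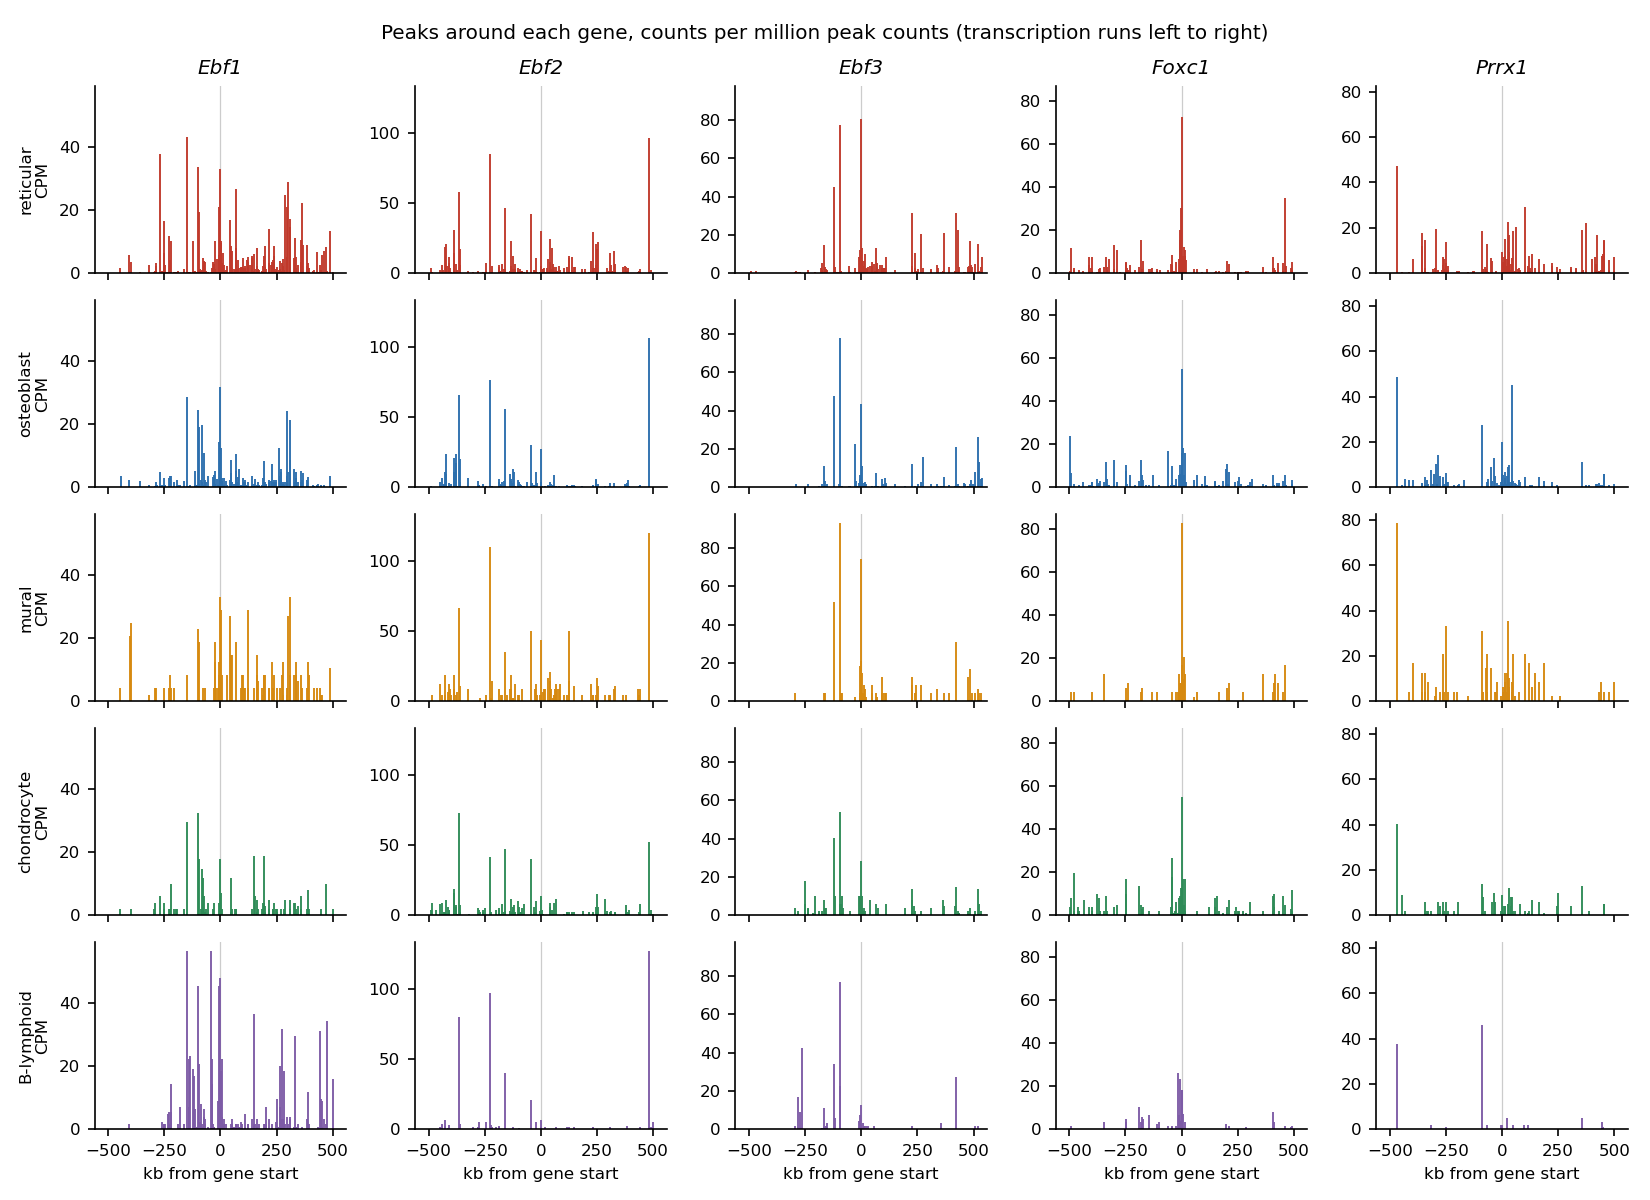
Each line is 1 of the 711 peaks, at its distance in kb from the gene start with transcription running left to right, and its height is the accessibility in CPM of peak counts in the class named at the left. The panels of a column share 1 scale: around Ebf1 the tallest reticular lines reach 43.2 and 37.7 CPM, and the tallest B-lymphoid lines, at 56.5 CPM, lie elsewhere in part.

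Mural nuclei, from the contractile cells and pericytes of vessel walls, had the median closest to reticular nuclei of the 4 classes compared. Of 234 peaks with enough counts, 94 were higher in reticular nuclei, against 35.2% of all peaks, and 27 were lower, against 10.1%. Both shares lay near the background, and so did the median log2 ratio, 0.47 around the 5 genes and 0.34 over all peaks. Window sums were close as well, with 1043 CPM in reticular nuclei and 1058 CPM in mural nuclei around Ebf2, and 630 and 592 CPM around Prrx1. With 19 mural nuclei, 2 counts in a peak already gave 4.14 CPM, so moderate differences at single peaks were not detectable.

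Against chondrocyte nuclei, 146 of 238 peaks were higher in reticular nuclei, against 41.2% of all peaks, and 14 were lower, against 10.1%. The contrast was widest at Ebf1, with 49 of 65 peaks higher and a median log2 ratio of 3.09, and at Prrx1, with 29 of 43 peaks higher, 0 lower and a median of 2.91. Foxc1 again stood at the background, with 13 of 34 peaks higher, 6 lower and a median of 0.44, against 0.63 over all peaks. Its window sum was 490 CPM in reticular nuclei and 474 CPM in chondrocyte nuclei. Foxc1 RNA was at 230 CPM in reticular and 61.3 CPM in chondrocyte nuclei.

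Compared with B-lymphoid nuclei, 190 of 238 peaks were higher in reticular nuclei, against 58.4% of all peaks, and 12 were lower, against 11.7%. Ebf1 was the exception among the 5 genes. Higher peaks were 40 of 42 around Prrx1, 51 of 59 around Ebf2, 26 of 33 around Ebf3 and 25 of 33 around Foxc1, but 48 of 71 around Ebf1, where 9 of the 12 lower peaks lay. The Ebf1 window summed to 881 CPM in reticular nuclei and 937 CPM in B-lymphoid nuclei, while the Prrx1 window summed to 630 and 109 CPM. Both classes thus had similar total accessibility around Ebf1, spread over partly different peaks. All 4 comparisons share the reticular nuclei, so their counts are not independent of each other.

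**Figure D3:**
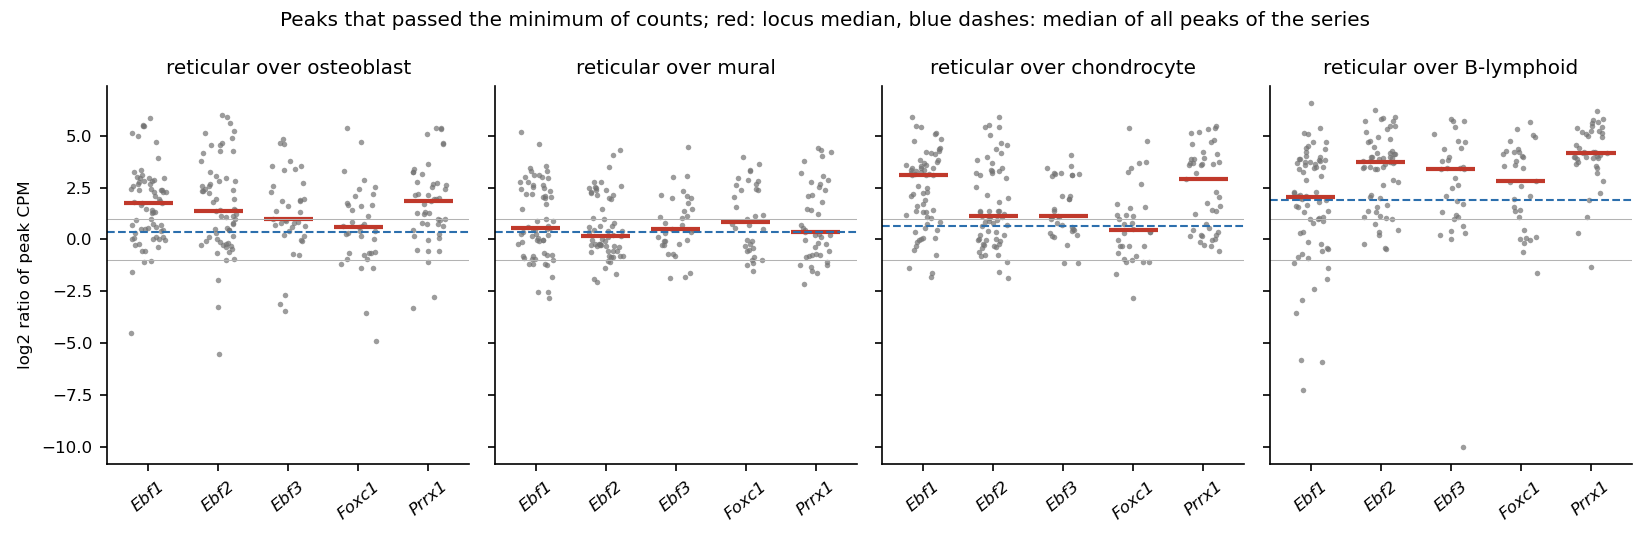
Each point is a peak with at least 50 counts over the 2 classes compared, placed by the log2 ratio of its CPM in reticular nuclei over the class named above the panel. Red bars are medians per gene, blue dashes the median of all peaks of the matrix (0.37, 0.34, 0.63 and 1.90 from left to right), and thin grey lines the 2-fold limits. Prrx1 and Ebf1 medians over osteoblast nuclei, 1.85 and 1.74, lie well above the dashes, and the lowest Ebf1 points over B-lymphoid nuclei reach -7.26.

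A class was said to lead a peak where its CPM was the highest of the 5 classes and its 95% interval overlapped none of the others. Of 282 peaks with at least 50 counts over the 5 classes, 18 (6.38%) were led by reticular nuclei, against 4.42% of 65974 peaks of the matrix. Osteoblast nuclei led 6 (all peaks 3.04%), mural nuclei 7 (1.89%), chondrocyte nuclei 2 (1.69%) and B-lymphoid nuclei 8 (5.09%), and no class led the other 241. By gene, reticular nuclei led 3 of 79 peaks around Ebf1 (3.80%), 5 of 70 around Ebf2 (7.14%) and 3 of 43 around Ebf3 (6.98%). They led 2 of 41 around Foxc1 (4.88%) and 5 of 49 around Prrx1 (10.2%). Ebf1 thus lay below the share of all peaks and Foxc1 near it. Transposition sites mostly came in pairs, with 84.4% of nonzero entries even, so these intervals were too narrow. With each pair counted as 1 fragment, reticular nuclei led 10 of 151 peaks (6.62%), against 1.62% of all peaks, and each of the 10 was among the 18. In that count osteoblast nuclei led 1 peak, mural nuclei 1, chondrocyte nuclei 0 and B-lymphoid nuclei 0. A mitochondrial limit of 20% gave 61 of 430 led by reticular nuclei, against 8.95% of all peaks, and no limit gave 84 of 551, against 9.05%, with all 18 among them in both. Counting each nucleus once per peak gave 2 of 119, against 0.331%. Of the 7 led by mural nuclei, 2 remained led at the limit of 20% and 5 without a limit. The peaks described next were singled out after their values were seen, beside those the naming rule chose.

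Around Ebf1, reticular and B-lymphoid nuclei led different peaks, which follows from the rule for leading. Of the 71 Ebf1 peaks with enough counts over both classes, 48 were higher in reticular nuclei, 9 lower and 14 neither. An intergenic peak 267 kb upstream (chr11:44349453-44350362) had 37.7 CPM in reticular nuclei, in 157 of the 330 nuclei, against 4.69, 0, 5.89 and 0 CPM in osteoblast, mural, chondrocyte and B-lymphoid nuclei. The 95% interval of its log2 ratio over B-lymphoid nuclei, which had 0 counts, began at 2.77, and its log2 ratio over osteoblast nuclei was 2.96 (interval 1.93 to 4.32). An Ebf1 intron 289 kb downstream of the start (chr11:44906226-44907128) had 24.9 CPM in reticular nuclei, against 1.44, 0, 4.91 and 1.59 CPM, and a further intron peak at 362 kb (chr11:44978860-44979723) had 22.1 CPM, against 2.16, 4.14, 0 and 0.796 CPM. These 3 peaks were the ones that reticular nuclei led around Ebf1, of 79 with enough counts (3.80%, against 4.42% of all peaks).

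B-lymphoid nuclei led 7 of the 79 Ebf1 peaks with enough counts, against 5.09% of all peaks. None of the 7 was led with pairs of sites counted as fragments at the same minimum of 50, where 6 fell below that minimum. The clearest, 41.9 kb upstream (chr11:44574560-44575459), had 0.330 CPM in reticular nuclei from 4 counts, against 56.5 CPM in B-lymphoid nuclei from 71 counts and 0 CPM in osteoblast, mural and chondrocyte nuclei. An Ebf1 intron at 147 kb (chr11:44764805-44765429) had 0.578 CPM in reticular against 36.6 CPM in B-lymphoid nuclei, and a peak 472 kb downstream (chr11:45089216-45090150) had 0.578 against 34.2 CPM. Osteoblast, mural and chondrocyte nuclei had 0 counts at each of these 3 peaks, and the depth of the mural class leaves up to 6.21 CPM open. Another of the 7, 5.69 kb upstream (chr11:44610757-44611630), was shared instead, with 21.0 CPM in reticular nuclei against 14.4, 12.4, 3.92 and 45.4 CPM. One peak was absent from osteoblast nuclei but not from B-lymphoid nuclei: 120 kb upstream (chr11:44496351-44497109), reticular nuclei had 10.3 CPM, against 0 counts in osteoblast nuclei (interval of the log2 ratio from 2.09 upward) and 19.1 CPM in B-lymphoid nuclei. Mural nuclei led 4 Ebf1 peaks, among them one 2.77 kb inside the gene (chr11:44620090-44620992) with 5.12 CPM in reticular, 29.0 CPM in mural and 2.89 CPM in osteoblast nuclei.

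Around Ebf2, reticular nuclei led 5 peaks. The strongest, an intergenic peak 233 kb downstream (chr14:67467288-67468195), had 29.1 CPM in reticular nuclei, against 1.44, 4.14, 0 and 1.59 CPM in osteoblast, mural, chondrocyte and B-lymphoid nuclei (log2 ratio over osteoblast 4.16, interval 2.57 to 7.50). An Ebf2 intron 48.5 kb downstream (chr14:67283134-67283870) had 17.5 CPM in reticular nuclei, against 0.722, 0, 3.92 and 0 CPM. An intron of Dpysl2, a gene of a cytoskeletal regulator 424 kb upstream (chr14:66809086-66809620), had 20.7 CPM, against 7.94 CPM in osteoblast nuclei and 0 CPM in the other 3 classes. A neighbouring Ebf2 intron pair showed a different pattern. The first (chr14:67357360-67358077) was led by mural nuclei, with 12.3 CPM in reticular nuclei against 49.7 CPM in mural and 0.722 CPM in osteoblast nuclei, and Ebf2 RNA likewise was highest in mural nuclei. The second (chr14:67358187-67358580) had 10.7 CPM in reticular nuclei, against 0 counts in osteoblast nuclei (interval of the log2 ratio from 2.19 upward) and 14.5 CPM in mural nuclei.

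Ebf3, whose RNA was the most restricted, had 3 peaks led by reticular nuclei, all beyond its 3′ end in or near Mgmt, which encodes a DNA repair enzyme. The intergenic one 384 kb away (chr7:136882556-136883470) had 22.6 CPM in reticular nuclei, against 1.44, 0, 1.96 and 0 CPM in osteoblast, mural, chondrocyte and B-lymphoid nuclei. Those in Mgmt introns had 31.2 CPM (chr7:137085751-137086637) and 20.8 CPM (chr7:136945632-136946543) in reticular nuclei, against 12.3 and 5.41 CPM in osteoblast nuclei. Mgmt RNA itself was at 148 CPM in reticular nuclei, against 4.52 CPM in osteoblast nuclei and 9.02 CPM in B-lymphoid nuclei, with 0 UMIs in mural and chondrocyte nuclei, so these peaks lay beside a second gene with the same direction. Inside Ebf3 the peaks were weak: 2 introns with 0 counts in osteoblast nuclei, at 37.5 and 9.61 kb, had 4.30 and 4.54 CPM in reticular nuclei, and the intervals of their log2 ratios began at 0.76 and 0.86. Osteoblast nuclei led 2 peaks here, one of them 28.8 kb upstream (chr7:137343202-137344104) with 2.56 CPM in reticular and 22.4 CPM in osteoblast nuclei. A peak 262 kb upstream (chr7:137576026-137576924) had 0 counts in reticular nuclei and 42.2 CPM in B-lymphoid nuclei.

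Around Foxc1 the peaks led by reticular nuclei lay next to the gene. A peak 2.40 kb upstream (chr13:31803495-31804235) had 30.1 CPM in reticular nuclei, against 5.41, 2.07, 12.8 and 3.98 CPM in osteoblast, mural, chondrocyte and B-lymphoid nuclei (log2 ratio over osteoblast 2.43, interval 1.44 to 3.55). Its neighbour at 1.88 kb (chr13:31804361-31804753) had 16.0 CPM, against 1.44, 0, 0.981 and 0 CPM. These were the 2 Foxc1 peaks, of 41 with enough counts, that reticular nuclei led (4.88%, against 4.42% of all peaks). The start peak beside them was open in osteoblast, mural and chondrocyte nuclei alike. A peak 460 kb away in an intron of Gmds, which encodes an enzyme of fucose synthesis (chr13:32267019-32267918), had 34.9 CPM in reticular nuclei, against 5.77, 16.6, 4.91 and 1.59 CPM, and its interval overlapped that of mural nuclei. Other classes had Foxc1 peaks of their own. Chondrocyte nuclei led one 40.5 kb upstream (chr13:31765309-31766157), with 3.80 CPM in reticular and 26.5 CPM in chondrocyte nuclei, and osteoblast nuclei led one 58.4 kb upstream (chr13:31747295-31748207), with 1.40 CPM in reticular and 16.6 CPM in osteoblast nuclei.

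In the introns of Prrx1, reticular and osteoblast nuclei each had a peak of their own. The reticular one, 60.6 kb into the gene (chr1:163252153-163253061), had 20.2 CPM in reticular nuclei, against 1.44 CPM in osteoblast nuclei and 0 CPM in mural, chondrocyte and B-lymphoid nuclei (log2 ratio over osteoblast 3.64, interval 1.97 to 6.92). The osteoblast one, at 45.9 kb (chr1:163266819-163267741), had 6.61 CPM in reticular nuclei, against 45.1, 0, 7.85 and 0 CPM, a log2 ratio over osteoblast of -2.77 (interval -3.31 to -2.14). Both were led by their class when pairs of sites were counted as fragments. The last intron peak, at 27.9 kb (chr1:163284917-163285811), was shared by reticular and mural nuclei, at 22.5 and 35.2 CPM, against 9.02 CPM in osteoblast nuclei.

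Of the other 4 Prrx1 peaks led by reticular nuclei, 3 lay in the cluster of Fmo genes, which encode flavin-containing monooxygenases. They were at the promoter of Fmo6 (chr1:162938412-162939301) with 21.9 CPM in reticular nuclei against 0.722 CPM in osteoblast nuclei, in an Fmo2 intron (chr1:162891730-162892641) with 16.8 against 1.44 CPM, and at the promoter of Fmo1 (chr1:162859574-162860378) with 14.0 against 5.77 CPM. All 3 had 0 counts in mural and B-lymphoid nuclei. RNA of Fmo1 was at 93.4 CPM in reticular nuclei against 6.79 CPM in osteoblast nuclei, and that of Fmo2 at 34.7 against 1.13 CPM, both with 0 UMIs in the other 3 classes, while Fmo6 had 0 UMIs in all 5 classes. As around Ebf3, peaks led by reticular nuclei thus stood beside other genes whose RNA was higher in these nuclei, and which gene a peak serves was not tested. An intergenic peak 104 kb downstream (chr1:163208823-163209706) was open in reticular and mural nuclei, at 29.2 and 20.7 CPM, against 4.33 CPM in osteoblast nuclei.

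**Figure D4:**
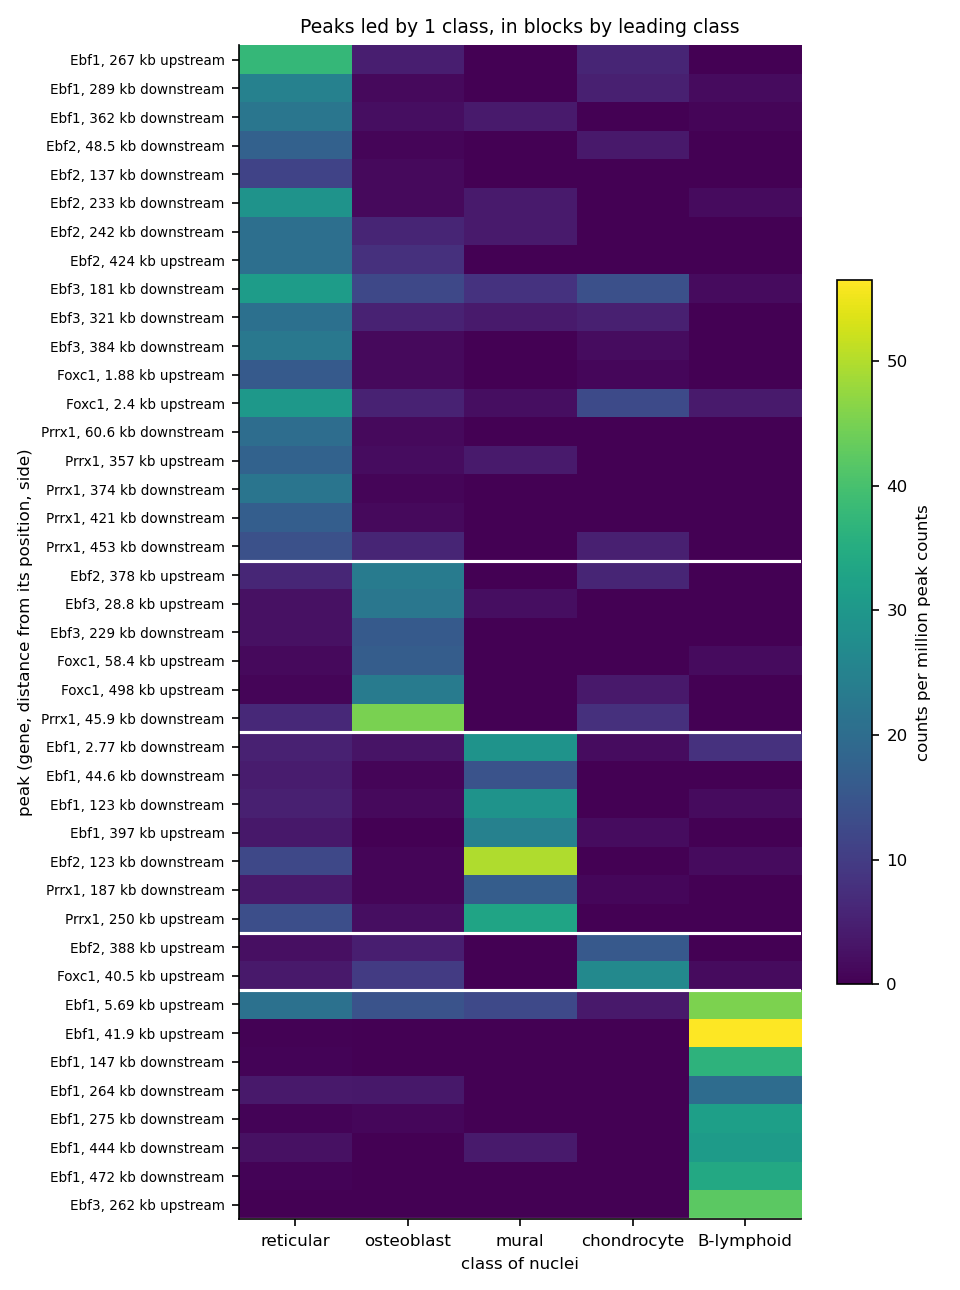
Rows are the 41 peaks led by 1 class, named by gene, distance and side, in blocks from top to bottom of 18 led by reticular, 6 by osteoblast, 7 by mural, 2 by chondrocyte and 8 by B-lymphoid nuclei; colour gives accessibility in CPM of peak counts. The brightest cells are the Ebf1 peak 41.9 kb upstream in B-lymphoid nuclei at 56.5 CPM, the Ebf2 peak 123 kb downstream in mural nuclei at 49.7 CPM and the Prrx1 peak 45.9 kb downstream in osteoblast nuclei at 45.1 CPM.

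The highest peaks of most windows were promoters of neighbouring genes that were open in all 5 classes. The promoter shared by Cdca2 and Kctd9, 481 kb from Ebf2, had 96.1 CPM in reticular nuclei, against 106, 120, 52.0 and 127 CPM in osteoblast, mural, chondrocyte and B-lymphoid nuclei. That of Bnip3l, a mitophagy receptor, had 84.6 CPM in reticular nuclei against 76.5 CPM in osteoblast nuclei, and that of Dpysl2 had 58.1 against 65.3 CPM. Promoters of 9430038I01Rik and Glrx3 near Ebf3 had 77.6 and 45.2 CPM in reticular nuclei, against 77.9 and 47.6 CPM in osteoblast nuclei. The promoter of Kifap3, a kinesin adaptor, near Prrx1 had 47.3 against 48.7 CPM, and none of these 6 differed between reticular and osteoblast nuclei beyond its interval. Ublcp1, which encodes a phosphatase, had the highest reticular peak around Ebf1, at 43.2 CPM against 28.5 CPM in osteoblast nuclei, and Rnf145, which encodes a ubiquitin ligase, had 33.5 against 24.5 CPM.

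By annotation, 77 of the 711 peaks lay at promoters, 13 in exons, 328 in introns and 293 between genes, with a median length of 874 bases (342 to 1111). Higher in reticular than in osteoblast nuclei were 17 of 44 promoter peaks with enough counts (38.6%, median log2 ratio 0.52), against 15.7% of 19102 promoter peaks of the matrix (median 0.06). Of the other peaks 124 of 211 were higher (58.8%, median 1.46), against 47.9% of 38870 (median 0.89). By distance, 44 of 91 peaks within 100 kb (48.4%) and 97 of 164 beyond (59.1%) were higher, against 37.3% of all peaks at any distance. Reticular nuclei led 4 of 98 peaks within 100 kb (4.08%) and 14 of 184 beyond (7.61%), against 4.42% of all peaks. Among the 141 peaks higher than in osteoblast nuclei, the early B-cell factor string was found in 10 (7.09%), against 7.81% of all such peaks of the matrix, and the forkhead string in 10 (7.09%), against 4.55%. The RUNX string was found in 9 (6.38%), against 11.7%, the homeobox string in 5 (3.55%), against 3.56%, and the AP-1 string in 18 (12.8%), against 14.8%. These are small counts and were not tested.

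Other transcription factors of stromal and B cells, a list of 33 genes, were set beside the 5. Of 23 with enough UMIs against osteoblast nuclei, 14 were higher in reticular nuclei and 1 was lower, with a median log2 ratio of 1.48, against 0.74 over all genes, of which 38.9% were higher and 7.03% lower. Among the higher ones were adipogenic factors: Pparg had 257 CPM in reticular nuclei against 5.66 CPM in osteoblast nuclei, Cebpa 79.0 against 7.92 CPM and Zfp423 113 against 15.8 CPM. Snai2, a repressor of mesenchymal cells, had 124 against 4.52 CPM, and Runx1, known for blood formation, had 1235 against 204 CPM. The free RNA profile held Pparg, Cebpa and Snai2 at 22.7, 15.4 and 16.2 CPM. How much of any class value came from free RNA was not measured. Runx2, the main factor of osteoblast differentiation, was close in both, at 983 and 839 CPM. The lower one, Sp7, a factor of committed osteoblasts at 67.0 against 234 CPM, was itself an osteoblast marker of the gates. The free RNA profile held Sp7 at 124 CPM. Against mural nuclei, 8 of 22 were higher and 2 lower, against 26.5% and 16.0% of all genes. Heyl, among the 2 lower, was itself a mural marker of the gates. Pparg was at 257 CPM in reticular nuclei and 397 CPM in mural nuclei. Chondrocyte nuclei gave 16 higher and 1 lower of 22 (31.1% and 14.1% of all genes), the lower one being the gate marker Sox9. B-lymphoid nuclei gave 18 higher and 4 lower of 25 (26.2% and 23.7%), and Pax5 among the lower ones was a gate marker. Ikzf1, a lymphoid factor, was among these lower ones, at 13.2 CPM in reticular nuclei against 1010 CPM in B-lymphoid nuclei, with 33.4 CPM in the free RNA profile.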

How the data were processed

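The authors deposited 1 matrix of raw counts with UMIs of 32293 genes and transposition sites (ATAC counts) of 203545 peaks in every barcode. It came from Cell Ranger ARC 2.0.0 by its header, with the build mm10 named in the submitters' processing notes. Their other peak list was not used.

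A barcode counted as a nucleus from 500 UMIs and 1000 ATAC counts upward if mitochondrial UMIs made up no more than 10%, a limit that removed 3236 of 4663 (69.4%), so the nuclei kept are a minority. Scrublet in scanpy 1.11.5 marked 5 of 1427 (0.350%), which is under 0.5%, and the 16 nuclei of highest score were dropped instead (0.8% per 1000 nuclei). A nucleus joined a class with at least 4 UMIs from at least 3 of its markers, summed at least 4-fold above their level in nuclei with over 10000 CPM of erythroid or granulocyte markers, and with an excess at least 2-fold above that of the next class. The free RNA profile came from barcodes with 100 to 400 UMIs and few ATAC counts. None of the 5 genes was a marker, and the mural marker Pdgfrb was left out of the gate. Peaks, genes, lists and the gate were chosen with earlier results of these data known.

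Counts were summed per class and scaled to CPM, with exact Poisson 95% intervals. Each side of a log2 ratio had 0.5 counts added. The 95% interval of a ratio was exact, conditional on the sum of both sides, and without the added counts. For genes it used UMIs, and for peaks it used pairs of sites counted as fragments, unlike the CPM intervals of peaks. A peak with at least 50 counts, or a gene with at least 20 UMIs, over both classes was called higher or lower past 2-fold. Scripts were tested on simulated data. Peaks named were the one nearest each gene, the 3 of highest CPM in reticular nuclei, the 3 of largest ratio over osteoblast nuclei and, for Ebf1, the 3 of largest ratio of B-lymphoid over reticular nuclei; others were named after their values were seen. Annotation came from GENCODE, and 200 bases around each peak centre were searched for motifs. The alternatives were other mitochondrial limits, gates, clusters, doublet rates, scalings, count minimums, folds and windows. Python 3.11.15, numpy 2.4.6, pandas 2.3.3, scipy 1.17.1 and matplotlib 3.10.9 were used.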

Additional observations from a re-analysis of the deposited data

How the results depend on the processing

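Of 132 recomputed counts, 66 stayed within 1.5 times the reported count and 66 did not. Of 363 recomputed single ratios, 349 stayed within their interval and 14 did not. The 4 genes with RNA higher in reticular than in osteoblast nuclei stayed 4 in each alternative that touched RNA: both mitochondrial limits, the stricter gate, clusters, more doublets removed, the 4-fold limit and subtraction of free RNA. Counts below are given as higher and lower in reticular nuclei, against osteoblast, mural, chondrocyte and B-lymphoid nuclei.

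A mitochondrial limit of 20% gave 24 of 326 peaks lower than in chondrocyte nuclei, against 17.0% of all peaks. Lower than in B-lymphoid nuclei were 28 of 317, against 16.7%, and reticular nuclei led 61 of 430, against 8.95%. No limit gave 54 of 383 lower than in osteoblast nuclei, against 26.6% of all peaks, a share that was 13.0% in the main setting. Lower than in chondrocyte nuclei were 67 of 416, against 29.2%, and lower than in B-lymphoid nuclei 32 of 335, against 18.2%. Reticular nuclei led 84 of 551, against 9.05%. A gate at 2 times the minimum gave 7 lower than in osteoblast, 14 lower than in mural, 97 higher and 8 lower than in chondrocyte, and 121 higher than in B-lymphoid nuclei. Classes from RNA clusters gave 31 of 342 led, against 6.24% of all peaks, and the mean of per-nucleus CPM gave 29 led.

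Counting each nucleus once per peak gave 60 and 4, 31 and 4, 59 and 0, and 73 and 2, with 2 led. A minimum of 20 counts gave 239 and 44, 164 and 78, 246 and 43, and 319 and 32. A minimum of 200 gave 31 and 1, 22 and 0, 40 and 0, and 41 and 2. A 4-fold limit left 10, 5, 1 and 7 lower. A window of 100 kb gave 44 and 10, 23 and 10, 47 and 8, and 65 and 6, with 4 led. In these settings fewer or more peaks could pass by construction, so the counts alone do not show a shift relative to all peaks.

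The next 2 alternatives were chosen after seeing the data. Pairs of sites counted as fragments gave 76 and 8, 48 and 6, 76 and 3, and 94 and 3, with 10 of 151 led, against 1.62% of all peaks. A minimum of 10 CPM in either class gave 58, 41, 69 and 76 higher, and 26 lower than in B-lymphoid nuclei. Here too the counts of higher and lower peaks alone do not show a shift relative to all peaks. Scaling by counts at promoters moved the median log2 ratio of all peaks over B-lymphoid nuclei to 2.21, from 1.90, and over chondrocyte nuclei to 0.53, from 0.63, and changed no count by 1.5 times. Among the single ratios over osteoblast nuclei that moved, Ebf2 RNA was at 5.54 and Ebf3 RNA at 6.70 at the limit of 20%, and the Foxc1 peak 1.88 kb upstream was at 5.50 and the Ublcp1 promoter at 1.73 under the stricter gate; the cause was not tested.

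No paired analysis was possible because there was 1 library of each kind. Mural and chondrocyte nuclei were few, so depth limits every comparison with them. Of 7 peaks led by mural nuclei, 2 remained led at the limit of 20% and 5 with no limit; the cause was not tested. The limit on mitochondrial UMIs decides which nuclei are seen, and a nucleus is not a replicate of an animal.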

Other observations

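The 775 nuclei that passed no gate were not compared with any class. Their summed accessibility around the 5 genes was 597 CPM for Ebf1, 805 CPM for Ebf2, 427 CPM for Ebf3, 395 CPM for Foxc1 and 414 CPM for Prrx1. Their RNA was at 502 CPM for Ebf1 (785 UMIs), 32.0 CPM for Ebf2 (50), 101 CPM for Ebf3 (158), 55.7 CPM for Foxc1 (87) and 120 CPM for Prrx1 (188). Erythroid or granulocyte nuclei had 420 CPM around Ebf1, 602 CPM around Ebf2, 164 CPM around Ebf3, 45.0 CPM around Foxc1 and 94.9 CPM around Prrx1.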
